A study of Bos grunniens with 18 samples.

Results

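The set described here is the microRNAs (miRNAs) of the imprinted DLK1-DIO3 locus, measured in testis of the yak (Bos grunniens). Members were taken by name: an entry of the deposited miRNA table belongs to the set when the number after miR- is 1 of 46 numbers known for this locus, whatever its letter or arm. Of these numbers 41 had at least 1 entry, and 5 (those of miR-337, miR-453, miR-770, miR-889 and miR-1193) had none. The set holds 112 of the 1536 entries of the table, of which 24 belong to the proximal group (8 numbers, among them those of miR-127, miR-136, miR-370, miR-432, miR-433, miR-493 and miR-665) and 88 to the distal group that runs from miR-379 to miR-656 (33 numbers). The files give no position for these miRNAs in the yak genome, so membership rests on the name.

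Testis tissue came from 9 healthy male yaks, 3 at each of 3 ages: 6 months (Y6M), 18 months (Y18M) and 4 years (Y4Y). The labels name no genetic change and no treatment beyond the anaesthesia for castration. Each animal gave a small RNA library and an rRNA-depleted RNA library, and p-values measure the spread between these animals. The libraries were grouped by the age in their titles, which the treatment description also gives. Another label calls the 4-year libraries infancy, the 6-month libraries adolescence and the 18-month libraries adulthood, and it was not used.

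In mammals the DLK1-DIO3 locus carries protein-coding genes read from the paternal chromosome (DLK1, RTL1 and DIO3) and long noncoding RNAs read from the maternal chromosome (MEG3 and its neighbours). The maternal RNAs hold a large number of miRNA hairpins in tandem. The proximal hairpins lie in or near MEG3 and antisense to RTL1, where miR-127, miR-136, miR-432 and miR-433 pair perfectly with the RTL1 transcript. The distal hairpins lie in the MIRG region. A hairpin is cut to a duplex whose 5′ or 3′ arm is loaded into an Argonaute protein, and bases 2 to 8 of the mature miRNA, the seed, do most of the target pairing. In the RefSeq yak assembly Bosgru_T2T1.0, the genes BEGAIN, DLK1, RTL1 and DIO3 lie in this order on chromosome 21.

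The sequences of the members on which the results turn are given here as the deposited table has them, 5′ to 3′ in DNA letters, with the seed in capitals. The first set holds the proximal members: the 3′ arm of miR-127 in its main and a longer form, the abundant arm of miR-136, miR-493 from each arm, miR-370, and miR-665 from each arm.
bta-miR-127: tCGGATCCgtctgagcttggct
miR-127-y: tCGGATCCgtctgagcttggcat
miR-136-y: cATCATCGtctcaaatgagtct
bta-miR-493: tGAAGGTCtactgtgtgccagg
miR-493-x: tTGTACATggtaggctttcatt
bta-miR-370: gCCTGCTGgggtggaacctggt
miR-665-x: aGGGGTCTtggcctctgccc
miR-665-y: aCCAGTAGgccgaggcccctcac

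The second set holds distal members that were abundant or that differed most clearly between ages: miR-411 and miR-379, which resemble each other, both arms of miR-409 and of miR-485, and miR-410, miR-494, miR-299 and miR-487a.
bta-miR-411a: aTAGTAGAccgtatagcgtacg
miR-411-y: tATGTAACacggtccactaac
bta-miR-379: tGGTAGACtatggaacgtagg
miR-379-y: tATGTAACacggtccactaact
bta-miR-409a: aGGTTACCcgagcaactttgcat
miR-409-y: gAATGTTGctcggtgaacccct
bta-miR-485: aGAGGCTGgccgtgatgaattcg
miR-485-y: gTCATACAcggctctcctctct
bta-miR-410: aATATAACacagatggcctgt
bta-miR-494: tGAAACATacacgggaaacctc
bta-miR-299: tGGTTTACcgtcccacatacat
bta-miR-487a: aATCATACagggacatccagt

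The 112 entries were 112 distinct sequences with 83 different seeds. The bta-miR-127, miR-127-y and miR-127-z entries had 1 seed, since they differ at their 3′ ends and not in their first 21 bases. The miR-411-y sequence lies whole within miR-379-y, which carries 1 base more, and miR-300-y lies whole within miR-381-y in the same way. Reads of these entries may therefore come from either hairpin. Other seeds shared across numbers were those of bta-miR-411b with miR-412-z, bta-miR-487a with miR-154-y, miR-485-y with miR-539-y, bta-miR-380-5p with miR-758-x, and miR-377-x with miR-381-x.

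The miRNA libraries held 4249724 to 9682475 counts in listed miRNAs. Levels are given as CPM, counts per 1000000 listed miRNA counts after scaling between libraries by the TMM method. A total of 72 members, 17 proximal and 55 distal, had enough counts to be tested, as had 881 miRNAs in all. The 40 other members had totals of 5 to 64 counts over the 9 libraries, and 35 of them had their highest mean raw count at 6 months. These means were not scaled for library depth. The libraries held 7958292 to 9682475 listed counts at 6 months, 4249724 to 7517361 at 18 months and 6182381 to 8380056 at 4 years. Whether depth accounts for the order in these 35 members was not tested. Since a member high at 1 age passes this filter more easily, counts over the 72 do not speak for all 112. A call below is an adjusted p under 0.05 in edgeR's quasi-likelihood test with Benjamini-Hochberg adjustment over all 881 miRNAs.

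Members of the locus were lower in older testis. They made up 3.181%, 2.809% and 1.601% of all listed miRNA counts in the 3 animals aged 6 months, 0.693%, 1.372% and 1.107% at 18 months, and 0.447%, 0.537% and 0.596% at 4 years. Every library at 6 months was above every library of the later ages, and the 4-year libraries lay below the 18-month libraries. On the CPM scale the 72 tested members summed to 27100 ± 9388 at 6 months, 10796 ± 4115 at 18 months and 4898 ± 597.4 at 4 years (mean ± SD, n = 3 each). The abundant bta-miR-127 carried much of this sum and of its spread. Without it the sums were 12587 ± 1345.3, 5442 ± 1885.1 and 2655 ± 342.6, again with no overlap between 6 months and either later age.

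**Figure D1:**
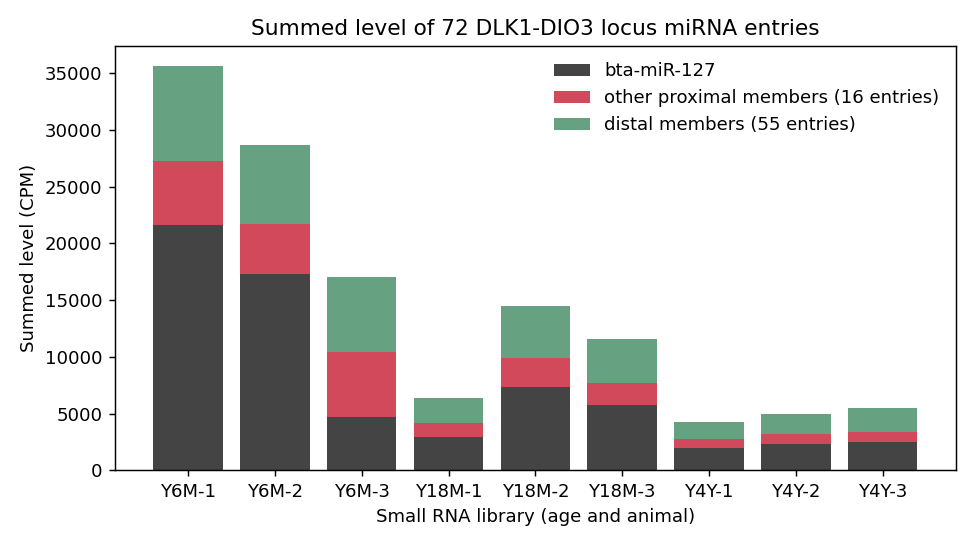
Stacked bars give the summed CPM of the 72 tested members in each of the 9 small RNA libraries, split into bta-miR-127, the 16 other proximal entries and the 55 distal entries. All 3 parts are lower at 4 years than at 6 months, and the third 6-month library has little bta-miR-127 but as much of the other members as its 2 companions.

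At 18 months against 6 months, 59 of 72 members were lower and 0 were higher by edgeR, where 22.9% of all tested miRNAs were lower and 28.9% higher. At an unadjusted p under 0.05, 61 were lower and 0 higher, where 508 of all 881 miRNAs passed, 286 of them higher. DESeq2 called 57 members lower and 0 higher, and its calls over all miRNAs are not given here. The median log2 fold change of the members was -1.38, against 0.12 over all 881 miRNAs and 0.25 over the 809 outside the set. In 60 members all 3 animals aged 18 months lay below all 3 aged 6 months, a pattern that 27.9% of all miRNAs showed. The members not called were of low level, such as miR-376-y, bta-miR-369-5p and bta-miR-656.

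At 4 years against 6 months, 68 of 72 members were lower and 0 higher, where 29.6% of all miRNAs were lower and 35.9% higher. At an unadjusted p under 0.05 the counts were again 68 and 0, where 605 of all 881 miRNAs passed, 333 of them higher. DESeq2 gave 67 and 0 members, and its calls over all miRNAs are not given here. The median log2 fold change was -2.06, against 0.09 over all miRNAs. In 70 members the 2 ages did not overlap, as was so for 33.5% of all miRNAs in this direction. The 4 members not called were bta-miR-656, miR-379-z, miR-431-y and bta-miR-376d. The 6-month libraries are shared by both comparisons, so the counts are not independent of each other.

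**Figure D2:**
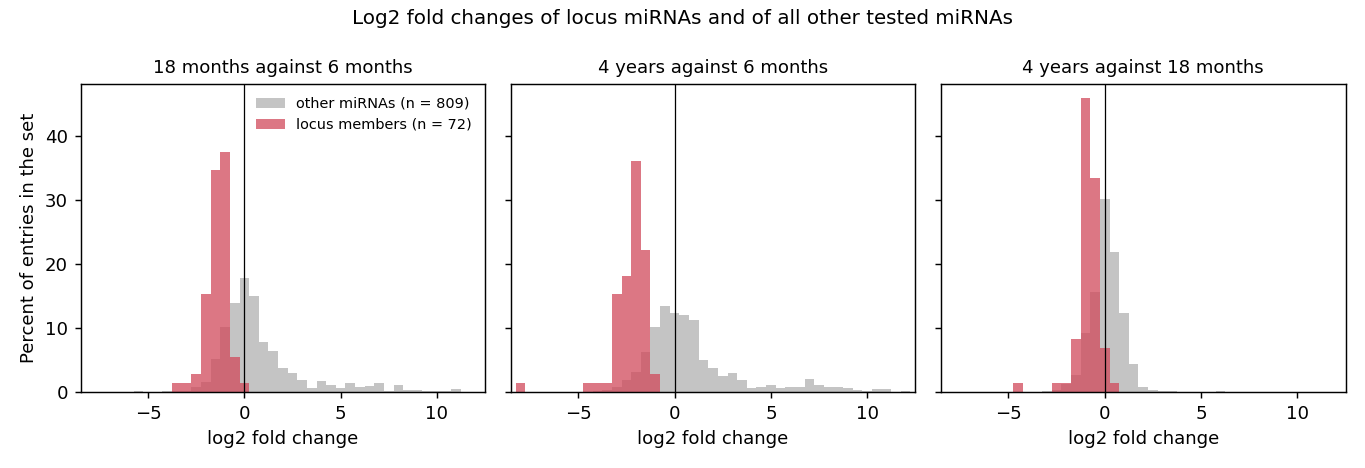
Histograms give the percent of entries per bin of log2 fold change, for the 72 members (red) and the 809 other tested miRNAs (grey), in the 3 comparisons of ages. Members lie left of 0 in both comparisons with 6 months, and the third panel shows a smaller shift, with a median of -0.86.

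Between 18 months and 4 years, 18 members were lower and 0 higher by edgeR, where 8.51% of all miRNAs were lower and 1.02% higher. At an unadjusted p under 0.05, 37 were lower and 0 higher, where 246 of all 881 miRNAs passed, 83 of them higher. DESeq2 called 25 members lower and 0 higher, and its calls over all miRNAs are not given here. The median log2 fold change was -0.86, against 0.04 over all miRNAs, and 30 members did not overlap between these ages, beside 18.8% of all miRNAs. The edgeR count of 18 changed when single libraries were left out. It was 40 without 18-month animal 1, and 4 and 2 without 18-month animals 2 and 3. It was 2, 1 and 4 without the 4-year animals 1, 2 and 3, and 1 when the 6-month libraries were left out of the fit. With any 1 library left out, the median log2 fold change of the members lay between -1.04 and -0.65. Calls over all miRNAs in these fits are not given here.

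The 18-month animals were spread between the other ages, and the members moved together within them. The median member lay at -1.85, -0.95 and -1.16 on the log2 scale relative to the 6-month mean in animals 1, 2 and 3, and at -2.13, -1.96 and -1.9 in the 4-year animals. Animal 1 was the lowest of the 3 in 59 of 72 members, against 43.4% of all miRNAs, and animal 2 the highest in 52, against 37.6%. The heatmap of members by library shows this as a darker first column among the 18-month libraries.

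**Figure D3:**
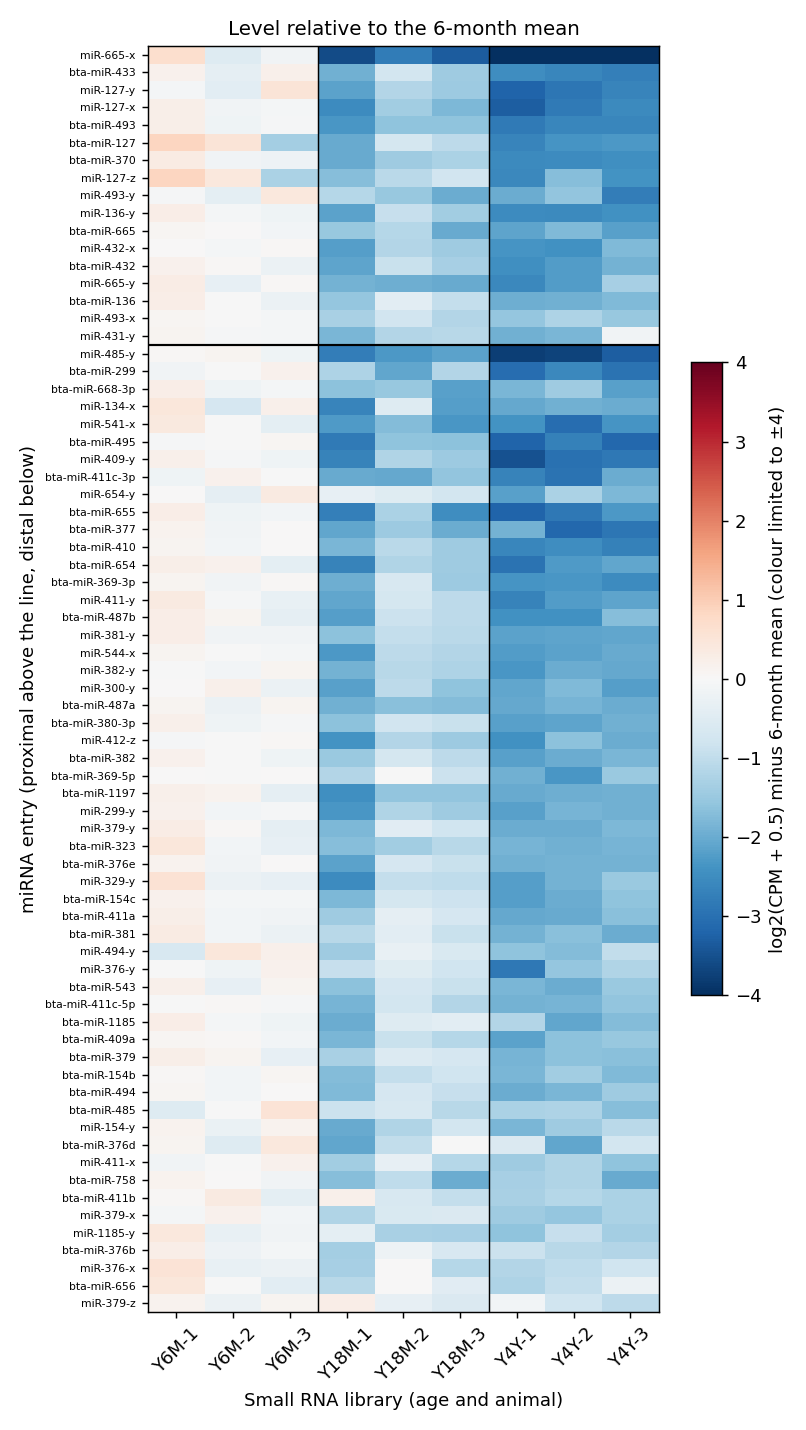
Colour gives log2(CPM + 0.5) of each of the 72 tested members minus its 6-month mean, by library, with proximal entries above the line, distal entries below it, and each group ordered by its log2 fold change at 4 years. Most rows are blue at 18 months and darker at 4 years, animal 1 is darker than animal 2 at 18 months, and the rows at the foot of the distal group change least.

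Among the proximal members, 16 of 17 were lower at 18 months and 16 of 17 at 4 years, with median log2 fold changes of -1.59 and -2.53. Among the distal members 43 of 55 and 52 of 55 were lower, with medians of -1.19 and -1.97. The difference between the groups was not tested. All 30 members with a mean of 20 CPM or more were lower at both later ages than at 6 months. The share of all miRNAs of this level that were lower is not given here.

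The most abundant member was bta-miR-127, the 3′ arm of a hairpin antisense to RTL1. Its level was 21591, 17292 and 4657 CPM at 6 months, 2947, 7351 and 5762 CPM at 18 months, and 1947, 2326 and 2455 CPM at 4 years. The 4-year values lay below all others, while the third 6-month animal fell within the range of the 18-month animals. The log2 fold change was -1.44 ± 0.49 (SE) at 18 months (edgeR adjusted p = 0.0328) and -2.69 ± 0.51 at 4 years (adjusted p = 0.00128). The call at 18 months was lost on leaving out 6-month animal 1 (adjusted p = 0.138) or 2 (0.104), 18-month animal 1 (0.0755) or 3 (0.0886), or any of the 4-year animals (0.0552 to 0.0594). It was kept without 6-month animal 3 (log2 fold change -1.77, adjusted p = 0.00356).

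The low bta-miR-127 of the third 6-month animal went with a high level of miR-127-y, 1 of the 2 longer forms. The miR-127-y entry, which matches bta-miR-127 in its first 21 bases and is 23 bases long in place of 22, stood at 2092, 1620 and 3108 CPM at 6 months. It was 491.6, 962.7 and 801.5 CPM at 18 months and 237.0, 297.9 and 348.6 CPM at 4 years, so its 3 ages did not overlap. In the third 6-month library bta-miR-127 was 0.24 of the mean of the other two, the lowest such ratio of the 122 miRNAs with a mean of at least 500 CPM. In the same library miR-127-y was 1.67 of that mean, the highest of the 122. The longest entry, miR-127-z of 25 bases, was low there too, at 0.247. The opposite arm, miR-127-x, was at 0.909, and so was the median of the 71 members other than bta-miR-127.

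As a share of the counts of the 3 entries of this arm, miR-127-y made up 8.82%, 8.56% and 40.0% in the 6-month animals. It made up 14.3%, 11.6% and 12.2% at 18 months and 10.8%, 11.3% and 12.4% at 4 years. The third 6-month library thus stood apart in which form was counted. The 3 entries summed to 23711, 18933 and 7771 CPM at 6 months, 3443, 8321 and 6573 CPM at 18 months and 2186, 2628 and 2806 CPM at 4 years, so the summed arm was also low in that library. With entries that share their first 16 bases merged over the whole table, a choice made after seeing the data, the arm had a log2 fold change of -1.41 ± 0.4 at 18 months (adjusted p = 0.014) and -2.67 ± 0.42 at 4 years (adjusted p = 0.000356). In that fit 50 of 60 members were lower at 18 months and 57 of 60 at 4 years, and calls over all miRNAs in it are not given here.

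**Figure D4:**
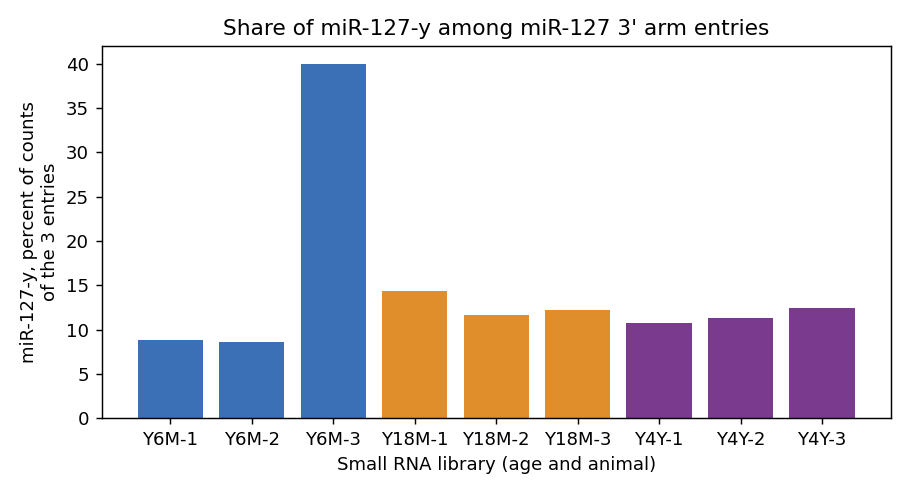
Bars give miR-127-y as a percent of the counts of bta-miR-127, miR-127-y and miR-127-z in each library. The third 6-month library reaches 40.0%, and the other 8 libraries lie between 8.56% and 14.3%.

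The 3′ arm of miR-136, another hairpin antisense to RTL1, followed at 2658, 2071 and 1943 CPM for miR-136-y at 6 months. It was 503.5, 1171 and 846.0 CPM at 18 months and 388.1, 377.6 and 408.5 CPM at 4 years, and no 2 ages overlapped. It was lower at 18 months (log2 fold change -1.4 ± 0.27, edgeR adjusted p = 0.00237), at 4 years (-2.51 ± 0.28, adjusted p = 7.62e-05), and at 4 years against 18 months (-1.1 ± 0.27, adjusted p = 0.0319). The last of these calls was lost on leaving out any of 5 single libraries. miR-432 and miR-433 from the same stretch were lower too, with bta-miR-433 at -1.37 and -3.1 and bta-miR-432 at -1.38 and -2.23 on the log2 scale at 18 months and 4 years.

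The proximal members bta-miR-493 and bta-miR-370 were called lower at every step. bta-miR-493 was 117.0, 87.05 and 95.43 CPM at 6 months, 19.25, 31.78 and 32.46 CPM at 18 months, and 13.47, 15.64 and 15.9 CPM at 4 years. Its log2 fold change was -1.84 ± 0.24 at 18 months (adjusted p = 0.000428) and -2.73 ± 0.25 at 4 years (adjusted p = 3.48e-05). bta-miR-370 was 89.36, 64.39 and 60.5 CPM at 6 months, 17.09, 25.88 and 28.97 CPM at 18 months, and 11.57, 12 and 12.33 CPM at 4 years. Neither overlapped between any 2 ages, and the steps from 18 months to 4 years had adjusted p = 0.0482 for bta-miR-493 and 0.0361 for bta-miR-370. Each of these 2 calls was lost on leaving out any of 5 single libraries, where the edgeR adjusted p reached 0.115 and 0.0986. Both were also lost with the replicate number as a block (edgeR adjusted p = 0.0983 and 0.0887).

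The steepest fall of any member was that of miR-665-x, the 5′ arm of miR-665. It was 66.06, 28.88 and 38.01 CPM at 6 months, 3.028, 5.625 and 3.664 CPM at 18 months, and 0.1271, 0.1101 and 0.2972 CPM at 4 years. The last 3 values stand for 1, 1 and 2 counts, so they are known with little precision. The log2 fold change was -3.41 ± 0.39 at 18 months (edgeR adjusted p = 0.000259), -7.89 ± 0.54 at 4 years (adjusted p = 1.09e-05) and -4.48 ± 0.58 between the later ages (adjusted p = 0.00428). It was the 1 named member whose call between 18 months and 4 years held whichever single library was left out, of 13 named members called there.

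Among the distal members, bta-miR-411a was the most abundant, at 3167, 2486 and 2454 CPM at 6 months. It was 1002, 2081 and 1676 CPM at 18 months and 648.1, 667.5 and 838.1 CPM at 4 years, with no overlap between ages. Its log2 fold change was -0.77 ± 0.25 at 18 months (adjusted p = 0.0283) and -1.91 ± 0.26 at 4 years (adjusted p = 0.000191). The call at 18 months was lost on leaving out any of 5 single libraries, where the adjusted p reached 0.098. bta-miR-379, whose gene opens the distal cluster, was 396.2, 363.8 and 267.4 CPM, then 135.8, 230.3 and 212.4 CPM, and then 93.66, 108.4 and 104.8 CPM. It fell by 0.83 and 1.74 on the log2 scale at the 2 later ages.

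Further abundant distal members showed the same order of ages. bta-miR-494 was 462.4, 406.7 and 435.5 CPM at 6 months, 128.5, 271.7 and 228.4 CPM at 18 months, and 109.8, 122.8 and 161.1 CPM at 4 years. bta-miR-154c was 605.7, 510.0 and 504.3 CPM, then 154.4, 331.6 and 301.7 CPM, and then 115.5, 134.2 and 176.7 CPM. Both overlapped between the later ages, through 18-month animal 1, and neither was called there. Both were lower at 4 years than at 6 months, with log2 fold changes of -1.73 ± 0.27 for bta-miR-494 (adjusted p = 0.00043) and -1.93 ± 0.29 for bta-miR-154c (adjusted p = 0.000333). miR-411-y, which cannot be told from a shortened miR-379-y, was 645.2, 486.1 and 412.9 CPM at 6 months and 78.16, 108.0 and 116.5 CPM at 4 years.

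A group of distal members of lower level fell by more. miR-485-y was 13.62, 14.33 and 11.64 CPM at 6 months, 1.514, 2.25 and 2.617 CPM at 18 months, and 0.5084, 0.5506 and 0.8915 CPM at 4 years. Its log2 fold change was -2.61 ± 0.3 and -4.33 ± 0.33 at 18 months and 4 years (adjusted p = 0.000259 and 1.91e-05), the largest fall among distal members at 4 years. At 18 months bta-miR-668-3p, with few counts, fell by more (log2 fold change -3.23 ± 0.83, edgeR adjusted p = 0.00933). It had 16, 14 and 12 counts at 6 months and 1, 2 and 0 at 18 months. It thus passed the filter on low counts through its 6-month libraries, which favours a large fall. bta-miR-299 was 5.176, 5.585 and 6.425 CPM at 6 months, 2.163, 0.9844 and 2.268 CPM at 18 months, and 0.2542, 0.5506 and 0.2972 CPM at 4 years. It fell by 2.18 on the log2 scale between 18 months and 4 years (adjusted p = 0.0286), a call lost without any of 4 single libraries.

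bta-miR-410 was 46.45, 40.05 and 43.63 CPM at 6 months, 11.89, 20.11 and 15.88 CPM at 18 months, and 6.736, 7.267 and 6.241 CPM at 4 years. It differed at each step, with log2 fold changes of -1.44 ± 0.23, -2.68 ± 0.24 and, between the later ages, -1.24 ± 0.24 (adjusted p = 0.00104, 3.48e-05 and 0.0167). The last call was lost when 1 of the 9 libraries was left out, with an adjusted p of 0.0544. bta-miR-495 was 40.05, 40.89 and 44.3 CPM, then 5.407, 13.22 and 12.91 CPM, and then 4.067, 5.946 and 4.309 CPM, a log2 fold change of -3.12 ± 0.34 at 4 years (adjusted p = 7.27e-05).

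Other members were called lower at 18 months but not between the later ages. bta-miR-487a was 17.57, 13.7 and 17.53 CPM at 6 months, 3.893, 4.781 and 4.537 CPM at 18 months, and 3.558, 4.074 and 3.715 CPM at 4 years. bta-miR-1197 was 66.61, 62.81 and 44.84 CPM, then 10.16, 18.84 and 19.02 CPM, and then 13.85, 14.53 and 14.71 CPM. Between the later ages their log2 fold changes were -0.22 ± 0.24 and -0.16 ± 0.27 (adjusted p = 0.558 and 0.723). miR-541-x, of still lower level, fell by 2.41 at 18 months and by 3.13 at 4 years against 6 months on the log2 scale.

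bta-miR-380-3p and bta-miR-381 were among the members with the smallest p between 18 months and 4 years. bta-miR-380-3p was 68.13, 123.5 and 114.6 CPM at 18 months and 46.51, 48.78 and 56.02 CPM at 4 years, a log2 fold change of -1.02 ± 0.24 (adjusted p = 0.0305). bta-miR-381 was 32.44, 52.59 and 38.04 CPM at 18 months and 18.94, 22.02 and 17.53 CPM at 4 years, a log2 fold change of -1.07 ± 0.25 (adjusted p = 0.0305). Neither overlapped between the 2 ages, and each call was lost without any of 5 single libraries.

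The 2 arms of a hairpin come from 1 precursor, and their ratio within a library does not depend on how libraries are scaled. It was compared across ages in the 10 hairpins of the locus that had at least 10 counts per library on average on each arm, with an exact permutation test over the 280 groupings of 9 libraries into 3 ages. Of these, 5 passed after Benjamini-Hochberg adjustment over the 10 (and 5 at an unadjusted p under 0.05), the smallest p that the groupings can give being 0.00357. Hairpins outside the locus were not compared, so whether this share is particular to the locus was not tested. In miR-409, miR-493, miR-136 and miR-485 the 5′ arm gained on the 3′ arm with age, and in miR-665 it lost.

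In miR-409, the 5′ arm took 44.1%, 47.5% and 46.8% of the counts of both arms at 6 months, 60.4%, 51.8% and 51.7% at 18 months, and 68.4%, 68.6% and 68.8% at 4 years. The mean log2 ratio of the 5′ to the 3′ arm went from -0.22 ± 0.1 (SD, n = 3) to 0.27 ± 0.29 and 1.13 ± 0.01 (exact permutation adjusted p = 0.0119), so the 3′ arm prevailed at 6 months and the 5′ arm later. Both arms were themselves lower with age. miR-409-y was 835.0, 704.3 and 649.7 CPM at 6 months and 64.69, 91.83 and 98.81 CPM at 4 years, while bta-miR-409a went from 656.8, 635.7 and 569.8 to 139.5, 200.4 and 217.1 CPM.

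In miR-493 the 5′ arm held 56.2%, 61.9% and 57.8% at 6 months, 73.7%, 72.4% and 66.4% at 18 months, and 77.8%, 78.6% and 76.1% at 4 years (exact permutation adjusted p = 0.0119). In miR-136 it was the minor arm throughout, with 5.94%, 6.18% and 5.74% at 6 months, 8.63%, 8.17% and 7.87% at 18 months, and 8.37%, 8.83% and 9.09% at 4 years (exact permutation adjusted p = 0.0179). In miR-485, where counts were low, it held 21.3%, 27.7% and 41.6%, then 65.0%, 60.0% and 46.4%, and then 80.0%, 79.2% and 60.0% (exact permutation adjusted p = 0.0214). The 6-month animals lay below all others in each of these hairpins.

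miR-665 went the other way. Its 5′ arm held 68.7%, 57.0% and 59.7% of the counts at 6 months, 31.1%, 43.5% and 39.6% at 18 months, and 3.12%, 2.04% and 3.51% at 4 years. The mean log2 ratio was 0.7 ± 0.38, -0.7 ± 0.38 and -4.63 ± 0.34 (SD, n = 3; exact permutation adjusted p = 0.0119), and no 2 ages overlapped. On the 3′ arm, miR-665-y was 22.48, 14.54 and 19.01 CPM at 6 months, 4.542, 4.359 and 4.188 CPM at 18 months, and 2.669, 3.524 and 6.984 CPM at 4 years. Between the later ages neither entry of the 3′ arm was called, with bta-miR-665 at a log2 fold change of -0.62 ± 0.36 (edgeR adjusted p = 0.277).

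For the 5 other hairpins the test was not passed. The adjusted p was 0.0952 for miR-299, 0.189 for miR-382, 0.223 for miR-369, 0.516 for miR-127 and 0.893 for miR-1185. In miR-127 the 5′ arm stayed under 2% of the counts in all libraries, with 1.78% in the third 6-month animal and 0.641% to 0.887% in the 8 others. A p above the threshold does not show that these ratios were equal across ages.

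**Figure D5:**
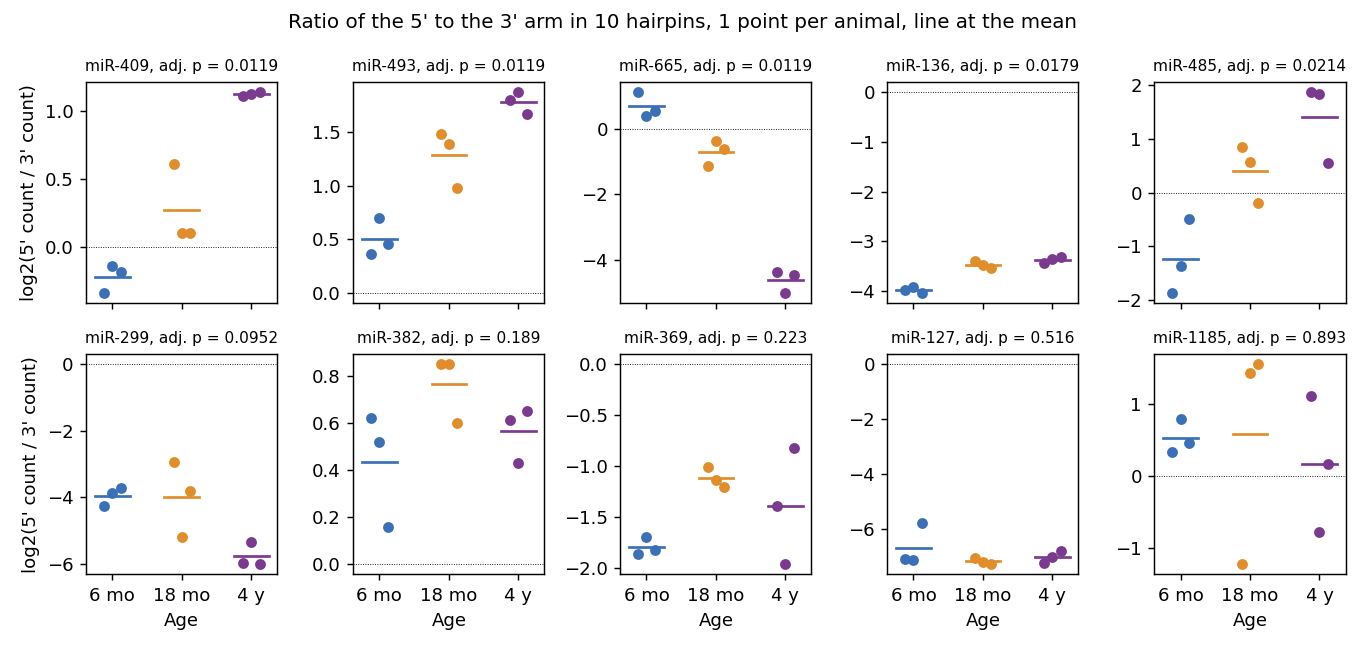
Points give the log2 ratio of 5′ to 3′ arm counts (0.5 added to each) in each animal by age, with lines at the mean, for the 10 hairpins compared. The 5 hairpins of the upper row pass the exact permutation test, with miR-665 falling to a mean of -4.63 at 4 years and the other 4 rising, and the 5 of the lower row do not.

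The protein-coding genes of the locus were measured in the RNA libraries of the same animals, which held 22950627 to 33123850 counts. Of 8 genes listed for the locus, BEGAIN, DLK1 and RTL1 were found in the gene table by symbol, and MEG3, MEG8, MEG9, MIRG and DIO3 were not analysed here. At 4 years against 6 months 1 of the 3 was lower and 1 higher, where 37.2% of 16742 tested genes were lower and 36.7% higher. RTL1, a retrotransposon-derived gene of the placenta and muscle, had 69, 45 and 67 counts at 6 months, 10, 57 and 8 at 18 months, and 9, 4 and 13 at 4 years. Its log2 fold change was -1.64 ± 0.8 at 18 months (edgeR adjusted p = 0.104) and -3.08 ± 0.86 at 4 years (adjusted p = 0.0101). Whether reads were counted by strand is not given in the sources used here, so RTL1 cannot be told apart from the miRNA precursor that runs antisense to it.

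DLK1, a membrane protein of the Notch ligand family, had 4.31, 10.1 and 4.21 CPM at 6 months, 1.99, 13.6 and 3.31 CPM at 18 months, and 1.33, 1.33 and 3.56 CPM at 4 years. Its ages overlapped at 18 months, and its log2 fold change at 4 years was -1.59 ± 0.77 (edgeR adjusted p = 0.0885). In RTL1, DLK1 and BEGAIN alike the second 18-month animal was the highest of its age. That animal was also the highest for 52 of the 72 miRNAs, beside 37.6% of all miRNAs tested. BEGAIN, which flanks the locus, was barely detected, with 0, 3 and 1 counts at 6 months, 13, 18 and 5 at 18 months, and 23, 13 and 13 at 4 years. It was called higher at 18 months (adjusted p = 0.0309) and 4 years (adjusted p = 0.0116). The first of these calls was lost without 6-month animal 1 or 3 or 18-month animal 1, and also with the replicate number as a block.

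Genes known to maintain imprints, or to bind and activate this locus, were taken as a list of 13, of which 12 could be tested. At 18 months 4 were higher and 5 lower, where 32.7% and 27.1% of all genes were, and at 4 years 4 were higher and 8 lower, where 36.7% and 37.2% of all genes were. ZFP57, a zinc finger protein that binds methylated imprinting control regions, was 79.5, 76.0 and 74.5 CPM at 6 months, 4.21, 13.5 and 8.79 CPM at 18 months, and 7.18, 5.16 and 5.5 CPM at 4 years. It fell by 3.11 ± 0.38 and 3.69 ± 0.4 on the log2 scale (edgeR adjusted p = 0.000257 and 9.03e-05). ZNF445, which acts beside ZFP57, fell by 1.11 ± 0.25 and 1.78 ± 0.26, and the insulator protein CTCF by 0.82 ± 0.17 and 1.27 ± 0.17.

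TRIM28, the partner of ZFP57 and ZNF445, went the other way. It was 317.3, 354.8 and 370.7 CPM at 6 months, 1390.0, 566.9 and 1019.6 CPM at 18 months, and 1456.9, 1325.3 and 1213.2 CPM at 4 years. Its log2 fold change was 1.51 ± 0.31 at 18 months and 1.94 ± 0.31 at 4 years (edgeR adjusted p = 0.00283 and 0.000553). The DNA methyltransferase DNMT3B had log2 fold changes of 1.75 ± 0.25 and 2.01 ± 0.25, and UHRF1, which recruits DNMT1 to replicated DNA, of 1.52 ± 0.32 and 2.1 ± 0.32. DNMT3L failed the filter on low counts. Between 18 months and 4 years none of the 12 was called by edgeR or DESeq2. At an unadjusted p under 0.05, 0 were higher and 3 lower, where 901 and 2671 of all 16742 genes were. After adjustment edgeR called 1 of the 16742 genes (0.00597%, lower), and DESeq2 called 197 higher and 740 lower. Without 18-month animal 1, 6 of the list were called.

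Among 10 genes of miRNA processing, 1 was higher and 5 lower at 18 months, where 32.7% and 27.1% of all genes were. At 4 years 2 were higher and 5 lower, beside 36.7% and 37.2% of all genes. XPO5, which carries precursor hairpins out of the nucleus, was 34.8, 37.7 and 43.5 CPM at 6 months, 173.8, 64.5 and 103.3 CPM at 18 months, and 178.7, 175.9 and 137.3 CPM at 4 years. Its log2 fold change was 1.56 ± 0.33 at 18 months and 2.08 ± 0.33 at 4 years. The Argonaute genes AGO4, AGO3 and AGO1 were lower, with AGO4 at 40.6, 44.5 and 41.5 CPM at 6 months and 6.13, 6.49 and 5.82 CPM at 4 years. Their log2 fold changes at 4 years were -2.78 ± 0.31, -1.82 ± 0.22 and -1.11 ± 0.15, while AGO2 was higher by 0.62 ± 0.24 (edgeR adjusted p = 0.042). DROSHA, which cuts the primary transcript, fell by 0.69 ± 0.18 at 4 years (adjusted p = 0.00762). DGCR8 and DICER1 did not pass at either age (adjusted p = 0.426 and 0.0938 at 4 years). Between the later ages 0 were called by edgeR or DESeq2, and 3 were called without 18-month animal 1. At an unadjusted p under 0.05, 0 were higher and 1 lower, where 901 and 2671 of all 16742 genes were.

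Markers of several cell types of the testis also differed between ages. In bulk tissue, fewer cells of a type and less RNA per cell cannot be told apart. Spermatid markers (6 of 6 genes in the table) summed to 1.859 to 4.068 CPM at 6 months, to 1652.4, 96.12 and 631.1 CPM in the 18-month animals 1, 2 and 3, and to 1751.2 to 2250.3 CPM at 4 years. Interstitial fibroblast and matrix markers (7 of 7) summed to 2707.4 to 3502.7 CPM at 6 months, to 257.2, 933.1 and 506.9 CPM at 18 months, and to 224.7 to 249.0 CPM at 4 years. Sertoli markers (8 of 8) went from 5037.5 to 5624.0 CPM at 6 months, through 936.0, 2276.5 and 1565.9 CPM, to 955.9 to 1033.9 CPM. The Sertoli list did not move as one: 3 of its 8 genes were called higher and 5 lower at 18 months, and 2 higher and 5 lower at 4 years. Leydig markers (5 of 5 symbols) went from 14945.8 to 21601.2 CPM, through 2531.5, 5816.8 and 4992.8 CPM, to 2408.0 to 4325.8 CPM.

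Within the 18-month animals, the summed member level without bta-miR-127 was 3412.1, 7137.5 and 5777.2 CPM. This was the order of the fibroblast, Sertoli and Leydig sums and the reverse order of the spermatid sum. Spermatocyte (815.9, 406.8 and 632.3 CPM) and macrophage sums (229.6, 76.8 and 113.5 CPM) also had the reverse order. So had erythrocyte markers (79.41, 5.815 and 28.43 CPM) and those of epididymis and rete (3 of 4 in the table, 84.65, 36.53 and 72.3 CPM). Endothelium markers (134.5, 139.3 and 197.0 CPM) had neither order. Peritubular myoid and smooth muscle markers (170.9, 766.3 and 401.9 CPM) had the order of the members. Their mean, however, was 293.3 CPM at 6 months, 446.4 CPM at 18 months and 187.5 CPM at 4 years. Spermatocyte markers (6 of 6) were at 4.816 to 13.61 CPM at 6 months, 406.8 to 815.9 CPM at 18 months and 790.9 to 897.0 CPM at 4 years. Macrophage markers (5 of 5 symbols) summed to 61.89 to 74.28 CPM at 6 months, 76.8 to 229.6 CPM at 18 months and 181.3 to 213.1 CPM at 4 years. Of their 9 tested entries, 6 were called higher and 2 lower at each later age against 6 months. Spermatogonia markers (6 of 6) summed to a mean of 261.5 CPM at 6 months, 451.0 CPM at 18 months and 460.8 CPM at 4 years, with 2 genes called higher and 2 lower at each later age against 6 months. No gene of these lists was at 0 in all libraries. The part of cell composition in the levels of the locus miRNAs was not tested.

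In the authors' deposited tables of differing miRNAs, 83 members were among the 676 miRNAs listed between 4 years and 6 months, all higher at 6 months, with a median log2 ratio of 2.07. The authors' deposited table for 6 against 18 months listed 58 members among 462 miRNAs, all lower at 18 months. The authors' deposited table for 4 years against 18 months listed 17 among 176, all higher at 18 months. For comparison, the set holds 112 of all 1536 entries. The p-values given with these lists are unadjusted, and the direction of the other listed miRNAs was not counted.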

How the data were processed

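Small RNA and rRNA-depleted RNA were sequenced from the testis of 9 yaks. Per the submitters' processing notes the tools were StringTie 1.3.4, HISAT2 2.1.0 and fastp 0.18.0, with build UMD3.1 of the cattle genome and no roles stated. For miRNA naming and counting, the method is not given in the sources used here. Per the file headers, the miRNA table holds a whole-number count and a TPM value per entry and library as deposited by the authors. The deposited TPM values are counts per 1000000 of a larger library total, which is 82.0% to 88.0% listed miRNAs, and were not tested (a 0 is written as 0.01). The gene table holds estimated counts as deposited by the authors, rounded here. The authors' 3 deposited miRNA comparison tables give a log2 ratio of group means and an unadjusted p-value, and served to count listed members.

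Counts were fitted with edgeR 4.0.16 in R 4.3.3 (filterByExpr, TMM, quasi-likelihood test, Benjamini-Hochberg adjustment over all features tested), in 1 model of 9 libraries with age as its factor and 3 contrasts. Standard errors were obtained as the absolute log2 fold change over √F. The fit was tested on simulated data. Names ending in -x and -y were taken as the 5′ and 3′ arm, which held in 34 of 34 and 38 of 38 overlaps with entries named by arm. Other entries took the arm of an entry they shared at least 12 bases with, or else the opposite one. For the arm ratio, 4 numbers with several letters and 3 numbers with contained sequences were left out.

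Members with values were named by rule: per comparison the 8 called members with the smallest p in each direction, the 10 with the highest mean level, members called against the majority, hairpins whose arm ratio passed, and up to 4 genes per list. Any other member or gene given with values, such as bta-miR-432, bta-miR-433, UHRF1 and DROSHA, was chosen after its values were seen. The members and lists were chosen with earlier results of these data known. Alternatives were DESeq2 1.42.0, other scalings, no filter, 2 ages alone, a replicate block, merged entries, entries named bta- alone, and each library left out in turn.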

Additional observations from a re-analysis of the deposited data

How the results depend on the processing

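Members called lower and medians kept their direction under every alternative run. Restricted to entries named bta-, of which 40 members were tested, 33 were lower at 18 months and 38 at 4 years, since fewer entries enter, and the 4-year sum was 4134.3 CPM. Without bta-miR-127 the sums were 12586.6, 5442.3 and 2655.4 CPM. The median log2 fold change at 4 years was -1.86 with library size alone, where the median of all miRNAs was 0.28 in place of 0.09, and -2.24 with TMM computed without the locus miRNAs. Between 18 months and 4 years, 1 member was lower when the 6-month libraries were left out and 2 with the replicate block, with fewer samples or residual degrees of freedom in those fits.

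With 1 library left out at a time, the members called lower ranged from 45 to 60 at 18 months, from 65 to 69 at 4 years and from 1 to 40 between the later ages, and the median at 4 years from -2.1 to -1.9. Calls among the genes of the locus at 18 months ranged from 0 to 1, those among imprint control genes between the later ages from 0 to 6, and those among miRNA processing genes from 0 to 3. Library size alone gave 5 imprint control genes at 18 months in place of 9. The cause of these changes was not tested, and calls over all miRNAs or all genes in these fits are not given here.

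Animals with the same replicate number are different animals, and same-numbered libraries did not deviate together (correlations of -0.22 to 0.14 over miRNAs). With the replicate number as a block, 54, 67 and 2 members were lower in the 3 comparisons, and 0 genes of the locus were called at 18 months. For arm ratios, 4 hairpins passed with at least 50 counts per arm and 5 with a pseudocount of 1. All 13 members not called at 18 months had a mean under 20 CPM, as had 29 of the 59 that were called. Whether depth kept the 13 from a call was not tested.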

Other observations

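Many distal members share a stretch of sequence that overlaps the end of their seed or lies next to it. The letters ACANGG, where N is any base, were searched on the sequence as deposited, on 1 strand, after the sequences had been seen, and this is a description with no test. They occur in 21 of the 112 entries of the set (18.8%, 15 numbers, 19 entries distal) and in 24 of the 1424 other entries (1.69%). The stretch starts at base 2 to 9, with a median of 7. From base 7 it covers bases 7 and 8, the end of the seed. Examples with the stretch in capitals are given here.
miR-411-y: tatgtaACACGGtccactaac
bta-miR-494: tgaaacatACACGGgaaacctc
bta-miR-369-3p: aataatACATGGttgatcttt
bta-miR-1197: taggacACATGGtctacttct
bta-miR-487b: aatcgtACAGGGtcatccactt

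Several hairpins were listed under more than 1 entry that differ at the 3′ end, and the share of the most abundant entry differed between hairpins. bta-miR-432 took 65.1% to 73.9% of the counts it shares with miR-432-x. bta-miR-379 took 88.6% to 93.1% of those it shares with miR-379-x and miR-379-z. The third 6-month library, where miR-127-y was at 40.0%, had 65.1% for bta-miR-432, the lowest of the 9 libraries, and 90.4% for bta-miR-379, within the range of the others.

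Members that failed the filter on low counts summed to 25.3, 16.9 and 18.2 per 1000000 listed counts at 6 months, 7.77, 11 and 9.87 at 18 months, and 5.84, 5.97 and 8.41 at 4 years. The 3 ages did not overlap between 6 months and either later age. bta-miR-376c and miR-539-y had the largest totals among them, 60 and 64 counts over the 9 libraries.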
